A study of Mus musculus with 66 samples.

Results

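The cerebellum of mice kept on a reduced energy intake was compared with that of mice fed freely, at about 24 months of age. Of 66 cerebellum arrays, 16 were compared: 7 from restricted mice (CR) and 9 from mice fed ad libitum (AL), aged 673 to 743 days. The animals were C57BL/6 mice of both sexes, housed singly, with 1 mouse on each array. The groups were 4 CR females of 703 to 736 days, 5 AL females of 704 to 733 days, 3 CR males of 673 days and 4 AL males of 719 to 743 days. All CR males were thus younger than every AL male, so that in males diet and age cannot be told apart, whereas the females on the 2 diets were of like age. The CR mice received full regular feed until 13 weeks of age, then a fortified feed at 90% for 1 week and at 75% for 1 week, and stayed on a ration of 60% for the rest of their lives. A further CR female of 743 days, on the array numbered 26, was left out, because the median correlation of that array with the others was 0.820 while that of the 16 arrays used ran from 0.943 to 0.974.

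Lifelong restriction of energy intake is the best known dietary means of lengthening life in rodents, and it acts in part through the insulin and IGF pathway, mTOR and the energy sensor AMPK. The cerebellum coordinates movement and motor learning. Its cortex holds Purkinje cells, the sole output neurons, a very large number of small granule cells, inhibitory interneurons, and Bergmann glia, the radial astrocytes that wrap Purkinje cell dendrites.

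RNA was hybridised to a nylon filter of 8448 mouse cDNA probes, and each value is a Z score: the distance of a probe from the mean of its array, in standard deviations over that array's probes. A difference is therefore in Z units and has no fold attached, and scores cannot be compared between genes. For 4083 probes the mean of the CR and the AL mean was above 0, and these were tested. Of them 2173 carry 1 gene symbol, and a gene name below stands for the probe as annotated. The probe annotated to Xist, the RNA that silences an X chromosome in female cells, did not separate the sexes, with a Z score of -0.973 ± 0.156 (SD) over the 9 females and of -1.03 ± 0.189 (SD) over the 7 males. Uty, a gene of the Y chromosome, stood at -0.669 ± 0.134 (SD) in females and -0.763 ± 0.204 (SD) in males. The X chromosome genes Kdm5c and Kdm6a stood at 1.46 and 0.12 in females and at 1.52 and 0.22 in males. In whole tissue, fewer cells of a type and less RNA per cell cannot be told apart.

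Of the neural markers on the filter, Car8, which is concentrated in Purkinje cells, had a mean Z score of 0.86, Dner, a Notch ligand of the same cells, one of 0.55, and Kcnd2, a potassium channel of granule cells, one of 0.56. The glial markers Gja1, the astrocytic gap junction protein, and Vim, the intermediate filament vimentin, stood at 1.09 and 1.00. Of the 6 astrocyte probes 4 were above 0, while Sparcl1 stood at -0.268 and the probes of Slc1a3 at 0.237 and -0.226. Among other markers the meningeal transporter Slc6a13 stood at 2.20 and the matrix protein Fn1 at 1.56. Of the 13 probes of meninges and fibroblasts 9 were above 0, while Dcn stood at -1.03 and -0.182. Probes of 1 gene disagreed here too, with Col1a2 at 0.884 and -0.849 and Col3a1 at 1.51, 1.01, 0.249 and -0.178. Of the 18 blood probes 6 were above the mean of an array, and the 3 probes of haemoglobin Hba-a2 disagreed at 1.52, -0.120 and -0.535. Of the 5 microglial probes 3 were above it, Fcer1g at 1.10, C1qb at 0.59 and C1qc at 0.57, while C1qa stood at -1.47 and Fcgr3 at -1.41. Of the 7 Purkinje cell probes 4 were above 0, while Gng13 stood at -0.66 and the probes of Calb1 at 0.375, 0.087, -0.141 and -0.636. No probe with 1 symbol was on the filter for any marker of oligodendrocytes or of the choroid plexus.

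With the sexes weighted equally, no gene passed the test between CR and AL. Of the 4083 probes, 2241 (54.9%) were higher and 1842 (45.1%) lower in CR mice, and 0 (0%) reached an adjusted p under 0.05 in limma, the smallest adjusted p being 0.998. At an unadjusted p under 0.05 there were 117 probes (2.87%), 29 higher (0.710%) and 88 lower (2.16%), where 5% of the probes would pass such a threshold by definition if no probe differed. By the criteria of the study, which ask for a Z-ratio of at least 1.5 in either direction (the difference divided by the SD of the differences over all probes, here 0.0854 Z units) with an unadjusted p under 0.05, 93 probes were called (2.28%). Of these, 20 were higher (0.490%) and 73 lower (1.79%) in CR mice. Only 49 of them carry 1 symbol, 8 higher and 41 lower, and these supplied the genes below, none of which passed the adjustment. The p in these criteria was limma's, and the study's further step, an ANOVA of the genes that remained, was not run. For no probe were all 7 CR mice on one side of all 9 AL mice. The 95% interval of a difference reached a median of 0.135 Z units to either side.

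Mlh3, a MutL homologue that works in DNA mismatch repair and meiotic crossing over, had the smallest permutation p of the lower genes. Its Z score in AL females was 1.59, 1.56, 1.52, 1.63 and 1.70, and in CR females 1.51, 1.46, 1.54 and 1.32. In AL males it was 1.62, 1.73, 1.64 and 1.66, and in CR males 1.53, 1.53 and 1.47. The males did not overlap, and in the females only the AL mouse at 1.52 lay within the range of the CR mice. The difference was -0.147 Z units (SE 0.0501, 95% interval -0.252 to -0.0435), with a p of 0.000454 in an exact two-sided permutation test over the 4410 arrangements of the diets within sex and an adjusted p of 0.998 in limma.

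Nxn, nucleoredoxin, a thioredoxin-like protein that binds Dishevelled, ranged from 1.56 to 1.83 with a median of 1.74 in CR mice and from 1.79 to 1.95 with a median of 1.86 in AL mice. The females did not overlap, and the difference was -0.138 (SE 0.0498, exact permutation p = 0.00136). Nectin1, an adhesion molecule of adherens junctions and synapses, ranged from 0.69 to 0.91 with a median of 0.82 in CR mice and from 0.83 to 1.05 with a median of 0.95 in AL mice. The males did not overlap, and the difference was -0.147 (SE 0.0535, exact permutation p = 0.0034).

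Ssr3, a subunit of the translocon-associated complex through which secretory proteins enter the endoplasmic reticulum, had a median of 0.42 in CR mice (0.30 to 0.57) and of 0.61 in AL mice (0.40 to 0.69), a difference of -0.156 (SE 0.0567). Rcn3, a calcium-binding chaperone of the same compartment, had a median of 0.39 in CR mice (0.24 to 0.52) and of 0.57 in AL mice (0.30 to 0.82), a difference of -0.201 (SE 0.0645). In both genes the males of the diets did not overlap and the females did. Clptm1l, a membrane protein, had a median of 0.08 in CR mice (-0.03 to 0.20) and of 0.25 in AL mice (0.11 to 0.37), a difference of -0.158 (SE 0.0542). Ankrd10, an ankyrin repeat protein, gave -0.222 (SE 0.0782), with 1 CR female at 0.29 while the other CR mice reached up to 0.94 and the AL mice ran from 0.83 to 1.15.

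Gdi2, which extracts Rab proteins from membranes, differed by -0.190 (SE 0.0607), Pex6, an ATPase of peroxisome assembly, by -0.195 (SE 0.063), and Rpl38, a protein of the large ribosomal subunit, by -0.156 (SE 0.0575). In each of these the males did not overlap, and the difference in females was smaller, at -0.059, -0.120 and -0.087 respectively. Males did not overlap for 17.3% of all kept probes. Thyn1, a nuclear protein, and Pde5a, the phosphodiesterase that degrades cyclic GMP, were lower in CR males and not in CR females. Thyn1 stood at 0.15, 0.14 and 0.13 in the CR males against 0.51 to 0.72 in the AL males, while its difference in females was 0.064. Pde5a differed by -0.438 in males and by 0.126 in females.

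The genes higher in CR mice were 8. Sfr1, a DNA repair protein, gave the largest difference of these, 0.233 (SE 0.0789, 95% interval 0.0688 to 0.397, exact permutation p = 0.0229). Its Z score was 1.62, 1.29, 1.34 and 1.23 in CR females and 1.47, 1.25, 1.02, 1.24 and 1.13 in AL females, and it was 1.52, 1.48 and 1.29 in CR males and 1.16, 0.82, 1.32 and 1.15 in AL males. The diets overlapped in both sexes.

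Tmem167, a small membrane protein of the secretory pathway, had a median of 0.20 in CR mice (0.11 to 0.34) and of 0.06 in AL mice (-0.07 to 0.21), a difference of 0.139 (SE 0.0522, exact permutation p = 0.00726). Hnrnpdl, an RNA-binding protein, had a median of 0.18 in CR mice (0.15 to 0.28) and of 0.07 in AL mice (-0.09 to 0.27), a difference of 0.144 (SE 0.0588, exact permutation p = 0.034). The other higher genes were Cnep1r1, a regulatory subunit of a lipin phosphatase (0.207, SE 0.0831), Kif3a, a kinesin motor that carries cargo in cilia and axons (0.189, SE 0.0847), Ctnnd1, the p120 catenin of cadherin junctions (0.161, SE 0.076), Wdfy3, a scaffold of selective autophagy (0.158, SE 0.0687), and Fzd3, a Wnt receptor of axon guidance (0.134, SE 0.0632). Ctnnd1 was 0.351 higher in CR males and -0.028 different in females. Compared only with mice of the same sex whose arrays lay in the same run of array numbers, which gave 6 pairs, the CR mouse was lower in 6 of 6 for Mlh3, Nxn, Ssr3 and Ankrd10, in 5 of 6 for Nectin1, Clptm1l, Rcn3 and Pex6, in 4 of 6 for Gdi2, Thyn1 and Rpl38, and in 2 of 6 for Pde5a. It was higher in 6 of 6 for Hnrnpdl, in 5 of 6 for Sfr1, Cnep1r1, Kif3a, Tmem167 and Wdfy3, and in 3 of 6 for Ctnnd1 and Fzd3. These genes were chosen by their p in the same mice, so the pairs are no independent check.

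**Figure D1:**
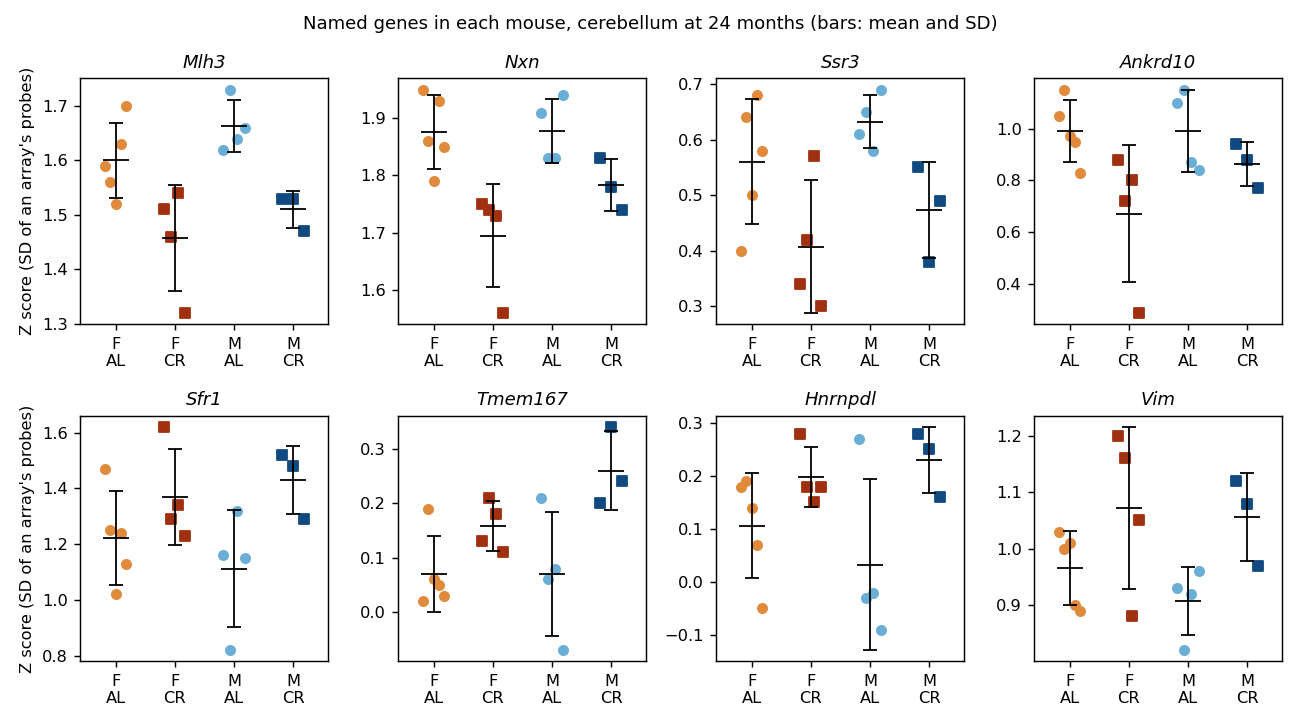
Z score of 8 genes (y axis, in SDs of an array's probes) in each of the 16 mice, by sex (F, M) and diet (AL, CR) on the x axis. Points are mice and bars the mean and SD of a group. Mlh3, Nxn, Ssr3 and Ankrd10 lie lower in CR mice and Sfr1, Tmem167, Hnrnpdl and Vim higher, with overlap of the diets in at least 1 sex for every gene.

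The lower genes were not spread evenly over the numbering of the probes. Of the 73 lower probes, 60 shared a run of 22 consecutive probe numbers with another, 33 of the 384 runs held all of them, 1 run held 6, and 20 were next to another in number. In 4 blocks of 2112 probe numbers each, from the lowest numbers, the lower probes numbered 49, 22, 1 and 1, and the higher ones 1, 5, 8 and 6. The mean difference over all kept probes of these blocks was -0.0251, -0.0023, 0.0271 and 0.0160. Ssr3 and Nectin1 have probe numbers close to each other, with Clptm1l near them. The same holds for Thyn1 and Gdi2, for Pex6 and Rpl38, and for Ankrd10, Rcn3 and Mlh3. No source used here says where on the filter a probe number lies.

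When the mean of each position and of each run was removed from every array, a step chosen after seeing the data, 21 probes met the criteria, 14 higher and 7 lower in CR mice. The difference was then -0.0029 for Mlh3, 0.00073 for Nxn, -0.0353 for Ssr3, -0.0431 for Ankrd10, -0.0168 for Nectin1, -0.024 for Thyn1, -0.0206 for Gdi2, -0.0095 for Rcn3 and -0.0292 for Clptm1l, and it changed sign to 0.0219 for Pex6 and 0.0768 for Rpl38. Pde5a stood at -0.0608. Of the higher genes, Sfr1, Kif3a, Cnep1r1 and Wdfy3 stood at 0.212, 0.202, 0.194 and 0.180, and Ctnnd1, Hnrnpdl, Tmem167, Fzd3 and Vim at 0.080, 0.0641, 0.0448, 0.0369 and 0.0325. The probes of Sfr1, Cnep1r1 and Wdfy3 all hold position 8 in nearby runs, a pattern that this step does not remove. In the AL males Sfr1 stood at 1.16, 0.82, 1.32 and 1.15, Cnep1r1 at 0.72, 0.42, 0.92 and 0.75, and Wdfy3 at 1.04, 0.82, 1.13 and 1.00, with the mice in the same order, and the 3 genes were lowest in the same mouse and highest in the same mouse. Part of a real difference is removed by this step where neighbours move together, and the part of the membrane in these results was not tested.

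Of 12 genes on the filter that the study singled out by name, 6 were kept, with 7 probes, of which 3 were higher and 4 lower in CR mice. The study chose its genes over several CNS regions, with these samples among them. It named Vim and Txnip from comparisons of cerebral cortex. Vim, which astrocytes and Bergmann glia contain, ranged from 0.88 to 1.20 with a median of 1.08 in CR mice and from 0.82 to 1.03 with a median of 0.93 in AL mice. The males did not overlap, as for 17.3% of all kept probes, and the difference was 0.128 (SE 0.0553, exact permutation p = 0.0127). It missed the Z-ratio of the criteria narrowly and did not pass the adjustment. Over the 4 kept astrocyte markers the median difference was 0.039 with 2 higher and 2 lower, beside 0.008 over all kept probes. Gja1 went the other way from Vim in males, also without overlap, at 1.04 to 1.06 in CR and 1.09 to 1.21 in AL males. The mean Z score of all 6 probes of that list ran from 0.303 to 0.563 in CR mice and from 0.320 to 0.520 in AL mice. In males, where Vim did not overlap, the list mean ran from 0.383 to 0.563 in CR and from 0.320 to 0.380 in AL mice. Vim itself is in this mean, so the list is no separate evidence for Vim.

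The others in that short list differed by -0.107 to 0.0353 with the sexes weighted equally. Wrn, the helicase mutated in Werner syndrome, gave 0.0353 (95% interval -0.0681 to 0.139), Terf1, a protein that binds telomeric repeats, -0.0081 (-0.124 to 0.108), and Txnip, an inhibitor of thioredoxin that responds to glucose, 0.0252 (-0.106 to 0.157). The co-chaperone Ptges3 gave -0.107 (-0.231 to 0.0167), with 0.033 in females and -0.247 in males, where the diets did not overlap. The 2 probes of Camk1d, a calcium- and calmodulin-dependent kinase, gave -0.0633 and -0.0146. The second of these differed by 0.220 in females and by -0.249 in males, so that its small value averages opposite differences. For Wrn, Terf1 and the second probe of Camk1d the interval reached no farther from 0 than -0.142.

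Of 26 lists of pathway genes, 21 had at least 5 kept genes. Their median difference lay between -0.0316 and 0.0458, beside 0.008 over all kept probes. Of the 434 places of kept probes in these lists 4 (0.922%) met the criteria in the higher direction and 9 (2.07%) in the lower, beside 0.490% and 1.79% over all kept probes, and no member passed the adjustment. The largest median belonged to Wnt signalling, the pathway of Frizzled receptors and beta-catenin, with 7 of 8 probes higher in CR mice. Its Ctnnd1 and Fzd3 met the criteria, and its median was 0.061 after correction for probe position and 0.035 after removal of position and run. In the lysosome and autophagy list 9 of 12 were higher with a median of 0.039, and its member of smallest p was Npc2, which moves cholesterol out of lysosomes (0.101, 95% interval -0.0331 to 0.235). The median was -0.006 after removal of position and run.

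Chaperones and protein folding had the lowest median, -0.0316, with 9 of 16 lower. Ion channels and transmitter receptors had 8 of 9 lower and a median of -0.029, and 5 of 9 lower with a median of -0.004 after removal of position and run. Their Kcnj12, an inward rectifier potassium channel, met the criteria at -0.221 (SE 0.0868), which came from the females at -0.450 with no overlap of the diets, whereas the males differed by 0.0083. Its sign turned to 0.0112 after removal of position and run and to 0.0582 with age as a covariate. The fifth CR female stood at 0.21 in Kcnj12 and the other CR females at 0.73 to 0.86. That mouse had the lowest median correlation of the 16, 0.943. It was also the lowest in Mlh3, Nxn, Ankrd10 and Gdi2, but not in Clptm1l or Rcn3. Without it 96 probes met the criteria, 32 higher and 64 lower. Among cyclic nucleotide and G protein signalling genes 15 of 24 were higher, although both members at the criteria, Pde5a and Prkar2a, which holds protein kinase A inactive until cyclic AMP binds (-0.159), were lower. Ubiquitin and proteasome genes were lower in 26 of 44 with a median of -0.015, and their Psmd10, a chaperone of proteasome assembly, met the criteria at -0.138. After removal of position and run Psmd10 stood at -0.065 and Prkar2a at -0.0986.

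Genes of energy metabolism and of translation were divided. In oxidative phosphorylation 12 of 22 were higher with a median of 0.015, and the member with the smallest p was Atp5b, the catalytic subunit of ATP synthase, at 0.0881 (95% interval -0.016 to 0.192). Cytosolic ribosomal proteins were lower in 27 of 45 with a median of -0.008, with Rpl38 at -0.156 and Rps6, the substrate of S6 kinase, at 0.102. Insulin, IGF, mTOR and energy sensing genes were higher in 7 of 13 with a median of 0.005, which became -0.002 after quantile normalization and -0.011 after correction for position. Me1, the cytosolic malic enzyme that makes NADPH, differed by 0.0988 (95% interval -0.019 to 0.217), with 0.88 to 1.00 in CR mice and 0.55 to 0.92 in AL mice. Prdx4, the peroxiredoxin of the endoplasmic reticulum, differed by -0.124 (SE 0.0522), Il3ra, a subunit of the interleukin 3 receptor, by -0.152 (SE 0.0599), and Slc27a4, a fatty acid transporter, by -0.135 (SE 0.0569). The last 2 met the criteria. Il3ra differed by 0.0305 in females and by -0.335 in males. After removal of position and run Prdx4, Il3ra and Slc27a4 stood at -0.0478, -0.0359 and -0.0076. Atp5b, Rps6 and Me1 then stood at 0.0462, 0.0019 and 0.0497.

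**Figure D2:**
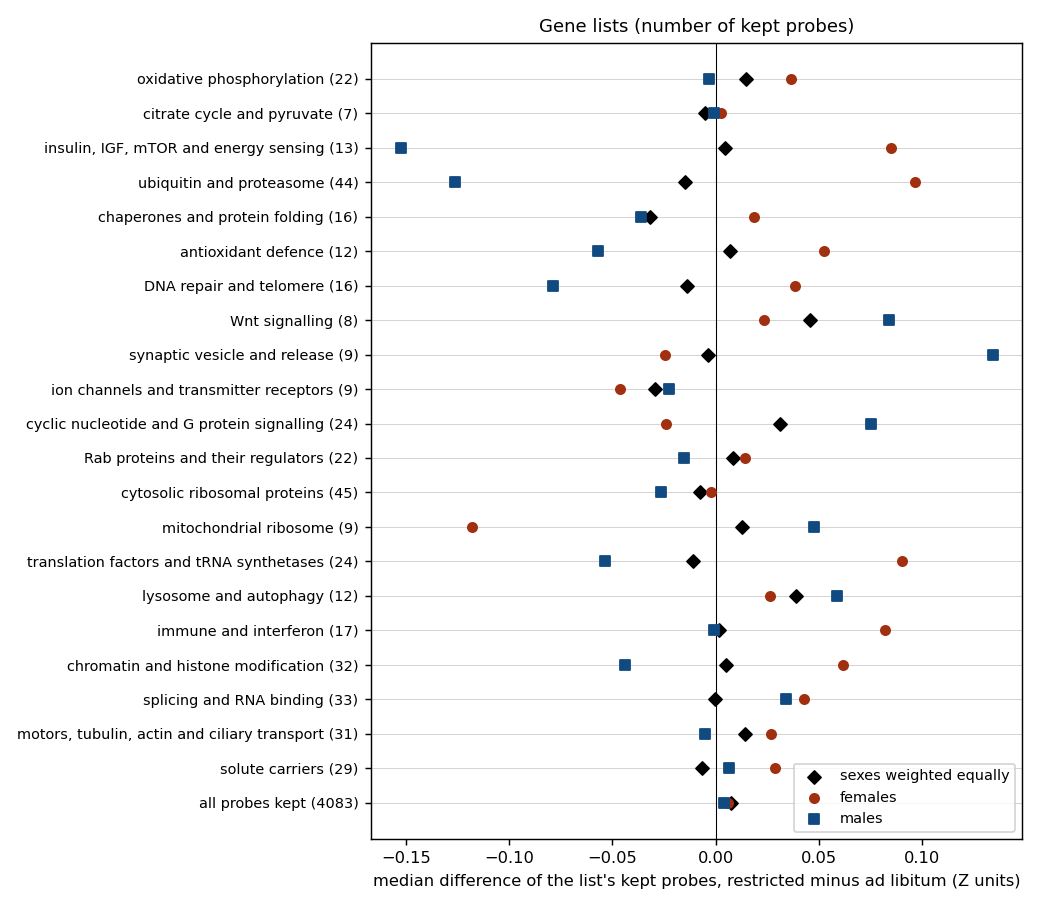
Median difference (CR minus AL, x axis, in Z units) of each gene list with at least 5 kept genes (y axis, number of kept probes in brackets), for the sexes weighted equally, for females and for males. The medians with equal weight lie between -0.0316 and 0.0458, those of females between -0.118 and 0.0963 and those of males between -0.152 and 0.134.

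The sexes differed in opposite directions. In females 0 probes (0%) passed the adjustment (smallest adjusted p 0.0605) and 599 (14.7%) had an unadjusted p under 0.05, 297 higher (7.27%) and 302 lower (7.40%) in CR. In males 0 (0%) passed (smallest adjusted p 0.103) and 1066 (26.1%) had an unadjusted p under 0.05, 520 higher (12.7%) and 546 lower (13.4%). The diets did not overlap for 97 probes in females (2.38%) and for 707 in males (17.3%), where 3 mice stood against 4. Of 220 probes with an unadjusted p under 0.05 in both sexes, 1 had the same direction in both. The difference had the same sign in the sexes for 781 of the 4083 probes, and across probes, which are not independent, the correlation of the female with the male difference was -0.671. Of the 21 gene lists, 15 had medians of opposite sign in the sexes.

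The difference between the sexes in their response was itself tested as the female minus the male difference. It passed the adjustment for 551 probes (13.5%), of which 342 (8.38%) were above 0 and 209 (5.12%) below. In all 551 the sexes had opposite signs. An unadjusted p under 0.05 was reached by 1601 probes (39.2%), and 263 of the 551 carry 1 symbol.

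**Figure D3:**
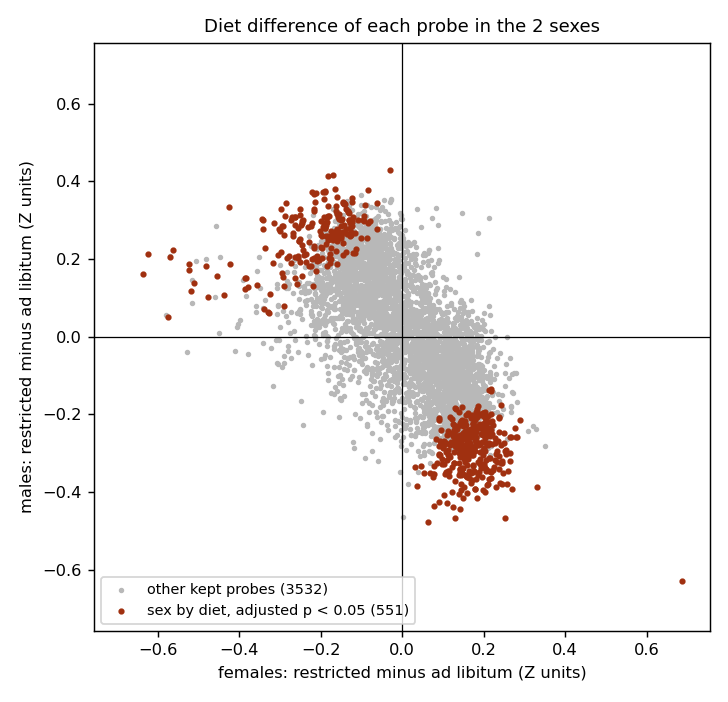
Diet difference (CR minus AL, in Z units) of each of the 4083 kept probes in females (x axis) and in males (y axis). The 551 probes with an adjusted p under 0.05 for sex by diet are coloured, and all of them lie in the quadrants where the sexes have opposite signs, 1 probe without a symbol lying far out at 0.688 in females and -0.627 in males.

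Cxadr, the coxsackievirus and adenovirus receptor of cell junctions, was higher in CR females and lower in CR males. Its Z score was 0.35, 0.30, 0.28 and 0.40 in CR females and 0.34, 0.13, -0.01, 0.06 and 0.16 in AL females. It was 0.11, -0.01 and -0.01 in CR males and 0.39, 0.40, 0.34 and 0.43 in AL males. The males did not overlap, while 1 AL female lay among the CR females. The female minus the male difference was 0.556 (SE 0.108, adjusted p = 0.0332 in limma).

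This gene and the others of this comparison were chosen after their values were seen, by the smallest p in each direction or as members of a list. In the same direction, and at the same adjusted p, were Tnrc6a, a scaffold of microRNA silencing (0.717), Aspm, a spindle protein (0.565), Pde5a (0.563), P3h2, a collagen prolyl hydroxylase (0.561), Xrcc6, the Ku70 subunit of end joining (0.557), Scamp5, a synaptic vesicle membrane protein (0.554), Rfx3, a regulator of ciliary genes (0.547), Thyn1 (0.541) and Ssbp3, a transcriptional cofactor (0.477). Eef1g, a subunit of the translation elongation factor complex, gave 0.540 with 1 probe and no overlap in either sex, but -0.212 (adjusted p = 0.158) with its other probe. Its probes therefore disagreed.

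Xbp1, the transcription factor of the unfolded protein response, was lower in CR females and higher in CR males. Its Z score was 0.39, 0.10, 0.24 and 0.20 in CR females and 0.45, 0.56, 0.55, 0.62 and 0.70 in AL females. It was 0.45, 0.62 and 0.47 in CR males and 0.54, 0.15, 0.10 and 0.05 in AL males. The females did not overlap, and the first AL male stood with the CR males. The female minus the male difference was -0.647 (SE 0.138, adjusted p = 0.0332 in limma).

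In the same direction were Zfp57, a zinc finger protein of imprinted loci (-0.643), Dhx57, a helicase (-0.607), Cbr2, a carbonyl reductase (-0.585), Asrgl1, an asparaginase (-0.580), Nkd2, an inhibitor of Wnt signalling (-0.578), Tcf20, a transcriptional coregulator (-0.551), Ccar2, an inhibitor of the deacetylase SIRT1 (-0.528), Rrm2b, the ribonucleotide reductase subunit of resting cells (-0.520), and Atg13, which starts autophagosome formation (-0.502). Asrgl1 and Ccar2 did not overlap in either sex. The first AL male was the highest of its group by far in Asrgl1, Cbr2, Dhx57 and Tcf20, at 0.25, 0.62, 0.95 and 1.13 Z units, and without this mouse 1652 probes passed the adjustment.

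Among genes of energy sensing, both regulatory beta subunits of AMPK passed this test in opposite directions. Prkab1 was lower in CR females by 0.287 and higher in CR males by 0.312, a female minus male difference of -0.599 (adjusted p = 0.0339 in limma). Prkab2 was higher in CR females by 0.206 and lower in CR males, a female minus male difference of 0.546 (adjusted p = 0.0338 in limma). Prkab1 lies at position 3 of its run, where all kept probes averaged -0.114 in females and 0.170 in males. Prkab2 lies at position 18, with averages of 0.0954 and -0.128. After correction for position the genes gave -0.349 and 0.334, and with the run removed too -0.159 and 0.191. Over the whole insulin, IGF, mTOR and energy sensing list, 2 of 13 probes passed (15.4%), near the 13.5% of all kept probes. The median of the list was 0.085 in females and -0.152 in males. After correction for position it was 0.048 and 0.024, with 0 probes past the adjustment.

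Of the ubiquitin and proteasome list 6 of 44 probes passed (13.6%, beside 13.5% of all kept probes), all above 0: Psmb5, a catalytic subunit of the proteasome (0.584), Psmd10 (0.522), Usp10 and Usp3, which remove ubiquitin (0.447 and 0.397), and Ube2k and Ube2j1, which conjugate it (0.438 and 0.371). The median of the whole list was 0.096 in females and -0.126 in males, and after correction for position it was 0.042 and -0.066 with 0 probes past the adjustment. Of the DNA repair and telomere list 5 of 16 passed, 4 above 0 and 1 below, beside 8.38% above and 5.12% below over all kept probes. The median of this list was 0.038 in females and -0.079 in males. After correction for position it was 0.035 and -0.084, with 0 probes past the adjustment. Pot1a and Terf2, proteins of the telomere cap, gave 0.530 and 0.496, Xrcc6 0.557 and the mismatch repair protein Pms2 0.504, while Atr, the kinase of the replication checkpoint, gave -0.477. Mlh3 of the same list gave 0.0100 (adjusted p = 0.945 in limma), with alike differences of -0.142 in females and -0.152 in males. The second probe of Camk1d gave 0.469.

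The sex-by-diet differences moved with the position of the probe and with the order of the arrays. Probe numbers run in cycles of 22 positions. At 11 positions the mean difference was negative in females and positive in males, at 10 it was the reverse, and at 1 the signs were the same. At position 17, which holds Psmb5, Scamp5 and Ube2k, 82 of 195 kept probes passed the sex-by-diet test (42.1%), while at position 9 the share was lowest, at 3.91%. When the mean of each position was set equal on all arrays, 1 probe of the 551 remained past the adjustment. The female minus male difference was then 0.424 for Cxadr and -0.397 for Xbp1. With the run removed too, it was 0.341 for Cxadr and -0.0940 for Xbp1. For the genes listed with Cxadr, from Tnrc6a to Ssbp3, it then lay between 0.117 (Scamp5) and 0.480 (Thyn1). For those listed with Xbp1, from Zfp57 to Atg13, it lay between -0.419 (Tcf20) and -0.0698 (Nkd2).

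**Figure D4:**
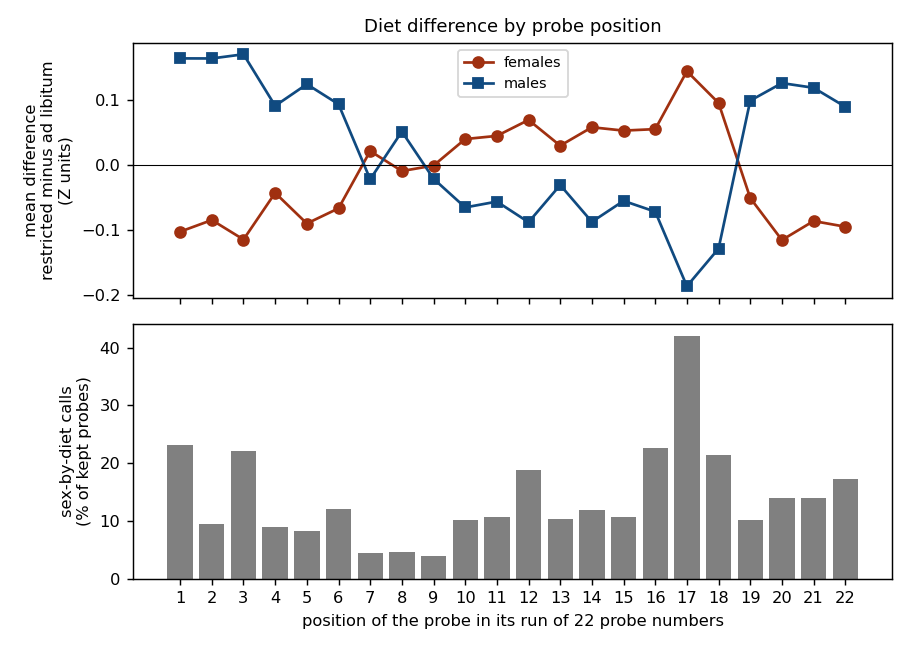
Upper panel, mean diet difference (CR minus AL, y axis, in Z units) of the kept probes at each of the 22 positions of the probe numbering (x axis), for females and males. Lower panel, share of the kept probes at each position that passed the sex-by-diet test, from 3.91% at position 9 to 42.1% at position 17.

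The first principal component of the 16 arrays held 34.0% of the variance, and 29.2% of the variance of its loadings lay between positions. Across the 4083 probes its loading correlated at 0.839 with the male difference, at -0.861 with the female difference, at -0.927 with the sex-by-diet difference and at 0.207 with the difference of both sexes. The 6 mice with array numbers 11 to 28 had scores from 6.23 to 17.2. The AL males on arrays 40, 54 and 66 had the scores -11.9, -13.0 and -16.2, and the CR females on arrays 39, 53 and 65 the scores -5.95, -9.97 and -11.1. The 3 CR males had array numbers from 11 to 49 with a median of 25, and the AL males from 13 to 66 with a median of 47. The first AL male and the first CR female, on arrays 13 and 12, had scores of 8.38 and 10.9, unlike the other mice of their groups.

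**Figure D5:**
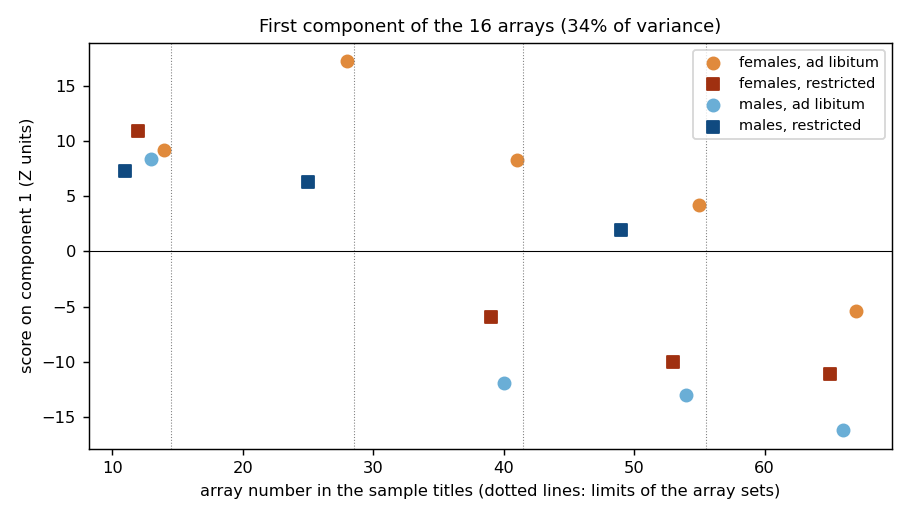
Score of each of the 16 mice on the first principal component (y axis, in Z units) against the array number in the sample titles (x axis), by sex and diet, with dotted lines at the limits of the runs of array numbers. All mice with array numbers up to 28 lie above 6 and the AL males from array 40 on lie at -11.9 or lower.

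Within runs of array numbers, every probe kept its direction in the fourth run, and fewer did in the others. For the 342 probes with the female difference above the male, the CR female was higher in 339 in the third run and in 342 in the fourth, but in 304 in the fifth and in 155, with 161 lower, in the first. The CR male was lower in all 342 in the fourth run and in 289 in the first. For the 209 probes with the female difference below the male, the CR female was lower in all 209 and the CR male higher in all 209 in the fourth run. The CR female was lower in 203 in the third run, in 153 in the fifth and in 159 in the first, whereas in the first run the CR male was higher in 69 and lower in 134. These runs hold 1 mouse of a group each, all of which entered the fit, so they are no independent check. With the run of arrays as a block 193 probes passed, and leaving out any 1 of the 16 mice gave between 0 and 1652, with 0 for 11 of the 16. The part of array order and position in the differences between the sexes was not tested, and the age of the CR males cannot be told apart from their diet.

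Markers of other cells were compared as whole lists. The mean Z score of the 18 blood probes ran from -0.312 to -0.0944 in CR mice and from -0.366 to 0.0533 in AL mice, and the diets overlapped in both sexes. The 13 probes of meninges and fibroblasts ran from 0.415 to 0.591 in CR mice and from 0.405 to 0.598 in AL mice, the 5 microglial probes from -0.3 to 0.004 and from -0.274 to 0.034, and the 3 endothelial and mural probes from -0.637 to -0.407 and from -0.633 to -0.287. The 7 Purkinje cell probes ran from -0.0757 to 0.214 in CR and from -0.0514 to 0.257 in AL mice. Granule cell Kcnd2 was 0.45 to 0.61 in CR and 0.53 to 0.70 in AL mice, a difference of -0.0766 (95% interval -0.179 to 0.026), and did not overlap in males, at 0.47 to 0.52 in CR and 0.53 to 0.70 in AL mice. The 2 interneuron probes, both of the receptor Kit, averaged 0.04 to 0.115 in CR males and -0.07 to 0.005 in AL males, which did not overlap, and -0.03 to 0.1 in CR females and -0.015 to 0.11 in AL females, which did. Slc17a6, a vesicular glutamate transporter of brainstem and deep nuclear neurons and the kept marker of neighbouring tissue, ran from -0.63 to 0.45 in CR and from 0.08 to 0.60 in AL mice. Its difference was -0.516 in females and 0.0858 in males, and -0.217 and 0.112 with position and run removed. The mean of the 3 probes of that list, with Ppp1r1b and Tph2, ran from -0.667 to -0.13 in CR and from -0.51 to -0.0067 in AL mice. The diets overlapped in both sexes. The part of tissue composition in the results was not tested.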

How the data were processed

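Total RNA of the cerebellum of single mice was labelled with a radioactive nucleotide and hybridised to nylon cDNA filters, 1 mouse per array. The authors deposited Z scores: each array's signals were centred on their mean and divided by their SD. The log scale and background treatment of the signals are not given in the sources used here. Spot intensities were not used, and arrays of this kind give no read depth, so that precision rests on the number of mice. Tissue was handled in balanced batches that the labels do not assign to arrays; array sets here are only runs of array numbers.

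From the deposited scores, a mean per sex and diet was fitted to 16 arrays with limma 3.58.1 in R 4.3.3 (12 residual degrees of freedom). Contrasts were CR minus AL with equal weight of the sexes, in each sex, and the female minus the male difference. Probes were kept where the mean of the CR and AL means was above 0, and p-values were Benjamini-Hochberg adjusted over all 4083 kept probes, with a threshold of 0.05. Adjusted p-values are limma's. Single genes were also tested by an exact two-sided permutation of diets within sex. The scripts were tested on simulated data. Platform annotation gave 1 symbol for 4875 probes, several for 224 and none for 3349; 4861 matched a reference gene ID and no symbol changed.

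Named genes were those of 1 symbol with the smallest p in each direction (12 at most) that passed the adjustment or, failing that, the criteria of the study; probes whose diets did not overlap (none); the kept genes that the study named; the member of smallest p in each list; and cell type markers. Genes of the sex-by-diet comparison, list members past that test and Prkar2a were added after their values were seen. The members and lists were chosen with earlier results of these data known. Alternatives were another filter, array 26 included, all groups in the fit, age, array set, array weights, quantile normalization, probe position and leaving out each mouse. A further 4 were chosen after seeing the data: position and run, position with array set, omission of the fifth array set, and array number.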

Additional observations from a re-analysis of the deposited data

Results flagged for a closer look

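In 210 groups of 4 or 5 mice over 70 named probes, 15 values stood far from the rest of their group by Dixon's test, which by chance picks about 1 group in 20. The first AL male was such a value in Asrgl1 (0.25, the other AL males -0.06 to -0.04), Cbr2 (0.62, others 0.11 to 0.17), Dhx57 (0.95, others 0.40 to 0.44), Tcf20 (1.13, others 0.76 to 0.80) and Prkar2a (0.30, others 0.08 to 0.09). The fourth AL male was low in Ctnnd1 (-0.27, others 0.07 to 0.09). Among CR females, the first was high in Nkd2 (0.09, others -0.19 to -0.15) and low in Txnip (-0.07, others 0.19 to 0.24) and Ube2k (0.90, others 1.02 to 1.03). The third was low in Kif3a (-0.14, others 0.36 to 0.38) and high in Me1 (1.00, others 0.88 to 0.90). The fifth was low in Nxn (1.56, others 1.73 to 1.75) and high in Terf1 (1.88, others 1.57 to 1.62). The second AL female was high in Nkd2 (0.26, others 0.15 to 0.18) and Tmem167 (0.19, others 0.02 to 0.06).

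The diet difference differed between the sexes for 551 probes, as tested in limma. Among the genes named, the female minus the male difference was above 0 for Aspm (0.565), Camk1d, second probe (0.469), Cxadr (0.556), Eef1g (0.540), Il3ra (0.365), P3h2 (0.561), Pde5a (0.563), Pms2 (0.504), Pot1a (0.530), Prkab2 (0.546), Psmb5 (0.584), Psmd10 (0.522), Rfx3 (0.547), Scamp5 (0.554), Ssbp3 (0.477), Terf2 (0.496), Thyn1 (0.541), Tnrc6a (0.717), Ube2j1 (0.371), Ube2k (0.438), Usp10 (0.447), Usp3 (0.397) and Xrcc6 (0.557). It was below 0 for Asrgl1 (-0.580), Atg13 (-0.502), Atr (-0.477), Cbr2 (-0.585), Ccar2 (-0.528), Dhx57 (-0.607), Nkd2 (-0.578), Prkab1 (-0.599), Rrm2b (-0.520), Tcf20 (-0.551), Xbp1 (-0.647) and Zfp57 (-0.643). The values of position and array order that moved with these are given above, and their part was not tested.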

How the results depend on the processing

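No gene of the equal-weight comparison passed the adjustment under any alternative run. No paired analysis was possible because replicate numbers were given in accession order and pair no mice; the array set as a block and the 6 pairs within array sets stand for matching. Also, the criteria of the study were not run without the filter, which is part of them. The 93 probes at the criteria (20 higher, 73 lower in CR) became 26 (4, 22) with array 26, 29 (10, 19) with all groups in the fit, 248 (182, 66) with age as a covariate, 201 (70, 131) with the array set as a block, 21 (14, 7) with position and run removed, 206 (72, 134) with position corrected and array set as a block, 149 (22, 127) with array number as a covariate and 30 at a Z-ratio of 2. The other settings gave 63 without the fifth array set to 131 with array weights (52 higher, 79 lower). Without 1 mouse the count ran from 52 to 193. It was 193 (123, 70) without the first AL male, 160 (74, 86) without the fourth CR female, and 52, 57 and 61 without the second CR male, the third CR male and the second AL male. The 117 probes at an unadjusted p became 309 without the filter, 30 with array 26, 41 with all groups, 878 with age, 308 with the array set, 501 with array weights, 38 with position and run removed, 382 with position and array set and 260 with array number, and 56 to 339 without 1 mouse. Females had 24 probes past the adjustment with age, 57 with the array set, 136 with array weights, 43 with position and array set and 45 with array number, and 0 to 49 without 1 mouse (49 without the first CR female). Males had 791 with age, 2233 with array weights and 0 to 1034 without 1 mouse (1034 without the first AL male, otherwise 0). The 551 sex-by-diet probes became 0 without the filter, with array 26, with all groups, with position and run removed, with position and array set and without the fifth array set, 1 with position corrected, 193 with the array set, 1629 with age and 2521 with array weights. Without 1 mouse they ran from 0 to 1652: 1652, 1430, 1265, 297 and 177 without the first AL male, the first CR female, the fifth AL female, the first AL female and the fifth CR female, and 0 without any of the other 11. Age and sex-by-diet share the 3 CR males, and the cause of these changes was not tested. Some differences of single genes changed sign. With age they were 0.0582 (Kcnj12), -0.0302 (Npc2), 0.0739 (Prkar2a), 0.201 (Slc17a6), 0.0179 (Terf1), -0.122 (Txnip) and -0.066 (Wrn). With position and run removed they were 0.0112 (Kcnj12), 0.00073 (Nxn), 0.0219 (Pex6), 0.0768 (Rpl38), 0.039 (Terf1), -0.0267 (Txnip) and, for sex by diet, -0.0308 (Ube2k). With array 26 they were -0.0097 (Atr), 0.003 (Prkab2) and 0.0384 (Camk1d, second probe). That probe gave 0.0132 with the array set, 0.0098 with position and array set, 0.0254 without the fifth array set and 0.0119 with array number, and the first Camk1d probe 0.0246 with array weights. Terf1 gave 0.0052 with position corrected and 9.6e-05 with array number. Without 1 mouse the second Camk1d probe ran from -0.055 to 0.015, Terf1 from -0.0435 to 0.0082 and Txnip from -0.00025 to 0.061.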
